A study of Mus musculus with 6 samples.

Results

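Gene deserts are long stretches of the genome that hold no protein-coding gene. In the S1 segment of the mouse kidney proximal tubule, 6273 open chromatin regions of 126099 merged regions lay in such stretches. A region was counted as a desert region when its strongest summit lay outside every protein-coding gene body, more than 100 kb from every protein-coding transcript start and more than 1 kb from any annotated start, and when at least 3 of the 6 peak lists held it. This rule used positions and presence, and no difference between the operations. Of the 88438 merged regions held by at least 3 lists, a further 21878 were intergenic but within 100 kb of a coding start (called nearer intergenic below), 38807 lay in coding gene bodies away from starts and 21480 lay within 1 kb of a start.

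The regions were called in 6 ATAC-seq libraries, for which a transposase inserts sequencing adapters where DNA is open. Each library was made from 3 short tubule pieces dissected by hand, from wild-type male C57BL/6 mice that were operated on at 7 weeks of age. The groups differed by the operation 24 h before: a sham operation (Sham, 3 libraries) or the removal of 1 kidney (unilateral nephrectomy, UNx, 3 libraries). The labels do not say that each library came from a different mouse, so the tests below measure the spread between libraries, which may be technical.

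A transcription start recruits the polymerase, whereas open chromatin far from any start is mostly made of enhancers, sites of the insulator protein CTCF, and sequence derived from mobile elements. Deserts beside developmental regulators such as Sox9 and Myc are known to carry enhancers that act over long distances. In proximal tubule cells the factors HNF1 and HNF4 bind many distal elements near genes for solute transport and metabolism.

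The sequences shown first carry the main patterns described below. They are read from GRCm38 on the strand given, and the positions are those of the printed bases. The first set holds stretches of the strongest desert region (nearest coding gene Mat2b), of the fifth strongest (nearest Pou3f2) and of a region that was lower after UNx (nearest Pcdh17). They are shown because they are copies of the same repeated sequence. Capitals mark bases of the Pou3f2 and Pcdh17 stretches that differ from the Mat2b stretch in a local alignment, and in the Mat2b stretch those that differ from Pou3f2.

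Mat2b region, chr11:39934326-39934487, plus strand: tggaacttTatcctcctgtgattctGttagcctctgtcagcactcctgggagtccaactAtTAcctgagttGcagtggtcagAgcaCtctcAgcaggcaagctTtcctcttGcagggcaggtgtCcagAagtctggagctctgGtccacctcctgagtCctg
Pou3f2 region, chr4:22763179-22763340, plus strand: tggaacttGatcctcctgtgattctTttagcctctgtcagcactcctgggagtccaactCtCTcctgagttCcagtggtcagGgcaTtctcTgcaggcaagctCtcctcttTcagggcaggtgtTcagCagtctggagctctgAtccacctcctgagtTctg
Pcdh17 region, chr14:83900823-83901013, minus strand: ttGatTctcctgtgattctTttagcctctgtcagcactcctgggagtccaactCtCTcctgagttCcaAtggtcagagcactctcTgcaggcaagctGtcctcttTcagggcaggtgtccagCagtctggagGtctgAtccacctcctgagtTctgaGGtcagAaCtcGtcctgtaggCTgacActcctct

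The Mat2b and Pou3f2 stretches were identical at 147 of 162 aligned positions (90.7%), and the Pcdh17 stretch matched the Mat2b window at 168 of 192 (87.5%). The next set shows 1 match each of 4 consensus strings, in capitals, with 20 bases on either side, on the plus strand (the HNF4 match is to the reverse complement of its string). The example for each string is the desert region of highest mean rank that holds it.

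HNF1 string, Mocs2 region, chr13:114680574-114680622: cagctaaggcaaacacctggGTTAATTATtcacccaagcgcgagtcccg
HNF4 string, Pdcd6ip region, chr9:113480091-113480139: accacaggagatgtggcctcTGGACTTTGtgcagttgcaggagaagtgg
AP-1 string, Nyap2 region, chr1:81624328-81624374: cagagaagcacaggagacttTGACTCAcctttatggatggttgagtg
CTCF string, Utp18 region, chr11:93763223-93763274: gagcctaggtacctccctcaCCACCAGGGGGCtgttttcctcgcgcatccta

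The last set holds 200 bases around the summit of the region nearest to Jun, which is rich in CG dinucleotides, and of the regions with the largest rise (nearest Tox3) and the largest fall (nearest Prdm13) after UNx. All 3 are on the plus strand.

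Jun region, chr4:95161301-95161500: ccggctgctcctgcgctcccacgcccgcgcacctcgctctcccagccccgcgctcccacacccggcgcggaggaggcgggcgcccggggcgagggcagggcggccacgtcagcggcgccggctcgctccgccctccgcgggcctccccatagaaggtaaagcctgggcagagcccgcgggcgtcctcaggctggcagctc
Tox3 region, chr8:90011719-90011918: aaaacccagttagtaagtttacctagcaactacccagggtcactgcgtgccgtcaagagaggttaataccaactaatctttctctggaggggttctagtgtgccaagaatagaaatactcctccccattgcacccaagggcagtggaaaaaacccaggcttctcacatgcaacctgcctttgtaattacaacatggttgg
Prdm13 region, chr4:21267406-21267605: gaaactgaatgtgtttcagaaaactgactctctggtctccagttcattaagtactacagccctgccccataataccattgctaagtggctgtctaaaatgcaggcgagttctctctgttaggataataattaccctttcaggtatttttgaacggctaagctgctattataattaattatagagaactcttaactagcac

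Desert regions were sparse for the land they occupy. The territory that meets the positional part of the rule made up 816.7 Mb, 30.8% of the known bases of the genome, and held 7.68 regions per Mb. It includes 57.4 Mb of chromosome Y, which held no desert region. Nearer intergenic land made up 729.1 Mb and held 30.0 regions per Mb. The open windows (201 bp around the best summit) were richer in G and C than the land around them, with a median GC content of 46.8% against 39.2% for the desert territory. They were also mostly free of repeats, and the median desert window was 5.97% repeat. The reference sequence marks 43.9% of all desert bases as repeats. A median over windows and a share of bases are unlike measures, so these values are not directly comparable. Windows at least 50% repeat were 365 of the 6273 (5.82%). The share of such windows among nearer intergenic regions was 6.81%. The treatment of reads that match several places, which bears on peaks in repeats, is not given in the sources used here.

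The median desert region was 543 bp wide, lay 202.6 kb from the nearest coding start and 33.7 kb from the nearest annotated start of any kind. Distances ran up to 2195 kb. Of the 6273 regions, 1033 (16.5%) lay inside the body of a long noncoding RNA gene, against 11.1% of nearer intergenic regions. A window with at least 10 CG dinucleotides was found in 99 desert regions (1.58%), against 4.81% of nearer intergenic regions and 56.0% of regions at starts. Presence was uneven: 3707 desert regions (59.1%) were held by all 6 lists, 968 by 5, 765 by 4 and 833 by 3.

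Strength is given as a percentile rank. Only the 77355 strongest peaks of every list were used, the length of the shortest one. Their ranks within a list run up to 100 at the top, and a region without such a peak scores 0. The median rank of desert peaks was 43.2, 45.9 and 44.5 in the Sham libraries and 44.5, 45.0 and 44.5 in the UNx libraries. The nearer intergenic peaks of the same lists had medians of 48.6, 50.6 and 49.1, and of 48.8, 48.5 and 47.3. Desert peaks ranked below nearer intergenic peaks in 6 of 6 libraries, with a mean difference of −4.18 ± 0.90 percentile points (SD, n = 6; range −5.33 to −2.78; exact sign-flip permutation test, two-sided, p = 0.031, the smallest possible). The libraries share most regions, so the 6 differences are not independent. Ranking by fold enrichment in place of −log10 q turned the direction, with a difference of 0.313 (exact p = 0.40625).

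**Figure D1:**
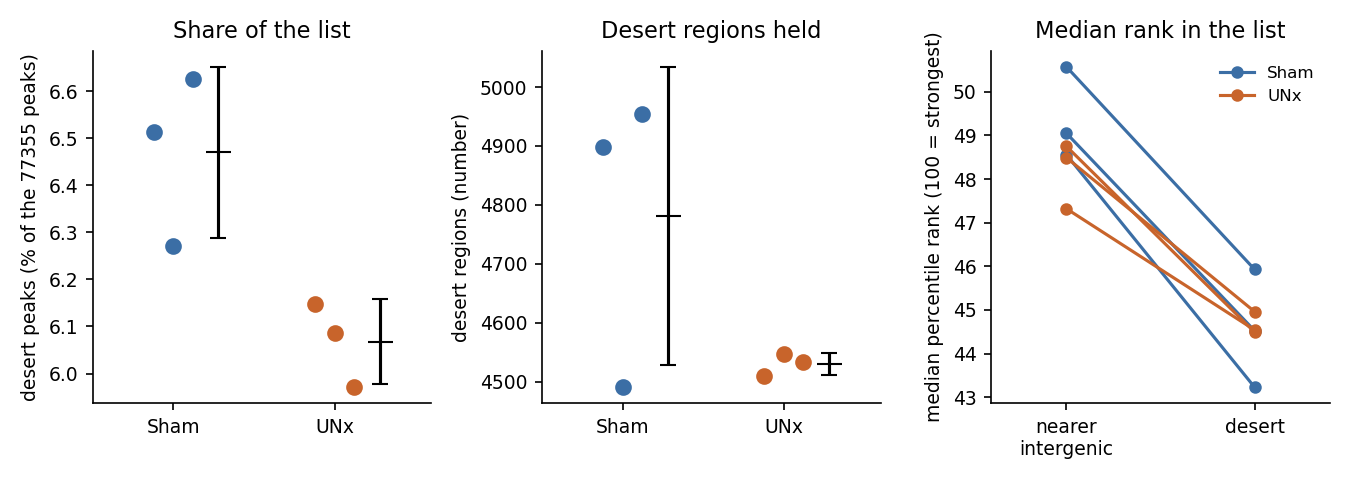
Each point is 1 library: the share of its 77355 strongest peaks that lie in desert regions (left, %), the number of desert regions held (middle) and the median percentile rank of nearer intergenic and desert peaks joined by a line (right); bars give the mean and SD of 3 libraries, blue is Sham and orange UNx. The 3 UNx shares (5.97 to 6.15%) all lie below the 3 Sham shares (6.27 to 6.63%), and every line falls from nearer intergenic to desert.

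A small number of desert regions matched the strongest peaks of the genome. In 161 of the 6273 (2.57%) the mean rank over the 6 lists was at least 90, against 3.39% of nearer intergenic and 23.8% of start regions. The strongest, 751 kb from Mat2b (a regulatory subunit of methionine adenosyltransferase), had ranks of 99.5, 99.0 and 99.2 in Sham and 99.1, 99.7 and 99.5 in UNx libraries. It lay outside any annotated noncoding gene body, and 79.1% of its window was marked as repeat. The groups overlapped in this region.

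The region 109 kb from Jun (a subunit of the AP-1 factor) was the second strongest. Its ranks were 99.4, 99.1 and 99.8 in Sham and 96.6, 99.2 and 99.7 in UNx libraries. Its window was 79.1% G and C with 28 CG dinucleotides and held no marked repeat. It lay inside a long noncoding RNA gene, 9661 bp from the nearest annotated start (Gm28096), and the groups overlapped. The regions nearest to Atp10a (a lipid flippase) and Myt1l (a neuronal transcription factor) followed, with mean ranks of 98.9 and 98.8 and group ranges that overlapped.

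The Pou3f2 region, 275 kb from the gene of a neural transcription factor, was the fifth, with a mean rank of 98.7 and 88.1% of its window marked as repeat. Desert windows were therefore compared with each other for exact runs of 20 bases, leaving out simple repeats. This comparison was added after the ranks had been seen, and its groups are described with no test. A run shared with another desert window was found in 574 of 6273 windows (9.15%).

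The windows linked by such runs to the Mat2b window, directly or through each other, formed a group of 73 desert regions on 19 chromosomes. Of the other 72 windows, 59 aligned to the Mat2b window over at least 100 positions, with a median identity of 86.9% (range 74.3 to 92.0%). The remaining 13 aligned over fewer, down to 14 positions, and are linked through other members, so they need not be copies of that sequence. The group supplied 21 of the 161 that ranked at 90 or above. The median of its members' mean ranks was 71.1, against 27.1 for the other 6200 desert regions. How reads that match several copies were placed is not given in the sources used here, so the rank of a single copy can include reads from the others.

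Consensus strings within 100 bp of the summit, on both strands, were counted in desert and nearer intergenic peaks. The HNF1 string (GTTAATNAT) was in 6.39, 6.35 and 6.44% of the desert peaks of the Sham lists and in 6.21, 6.31 and 6.57% in the UNx lists. Nearer intergenic peaks of the same lists held it in 3.41, 3.51 and 3.39%, and in 3.27, 3.30 and 3.53%. The mean share was 1.87 times as high in desert peaks, and it was higher in 6 of 6 libraries.

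The CTCF string went the other way. It was in 4.64 ± 0.41% of desert and 8.68 ± 0.48% of nearer intergenic peaks (SD, n = 6), lower in 6 of 6. The strings of TEAD (CATTCCA; 6.11 against 4.68%), of forkhead factors (TGTTTAC; 3.46 against 2.92%) and of HNF4 (CAAAGTCCA; 3.36 against 2.78%) were higher in desert peaks of 6 of 6 libraries. The strings of SP (GGGGCGGGG; 0.606 against 1.45%), ETS (CCGGAAGT; 0.211 against 0.438%) and nuclear respiratory factor 1 (GCGCATGCG; 0.0501 against 0.161%), which are typical of promoters, were lower in 6 of 6, as was the rare RFX string (GTTGCCATG; 0.269 against 0.305%). Matches of ETS, nuclear respiratory factor 1 and RFX were few, in 12, 3 and 17 desert regions, and the lists largely recount them. The AP-1 string (TGACTCA) was at 5.84 and 5.95%, lower in 5 of 6 libraries.

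Each region has 1 window, read once for all lists, and the lists share most regions, so the 6 differences per string are not independent. With 6 libraries no exact test can go below p = 0.031. The 9 strings with the same sign in all 6 libraries reached that value, which is 0.0556 after Benjamini-Hochberg adjustment over the 16 strings. So 0 of the 16 passed the adjusted threshold of 0.05 and 9 passed it unadjusted, while 11 passed it adjusted when all deposited peaks were used. Counted over regions, the HNF1 string was in 378 of the 6273 desert regions (6.03%), beside 3.03% of all 88438 regions in at least 3 lists and 1.18% of regions at starts. For the CTCF string the desert share was 4.46%, beside 4.98% of all regions. The shares for HNF4 were 3.33 and 2.45%, for TEAD 5.91 and 4.24% and for AP-1 5.95 and 5.18%. Matches of different strings overlapped in at most 2 desert windows for any pair, and 4320 desert windows (68.9%) held none of the 16.

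**Figure D2:**
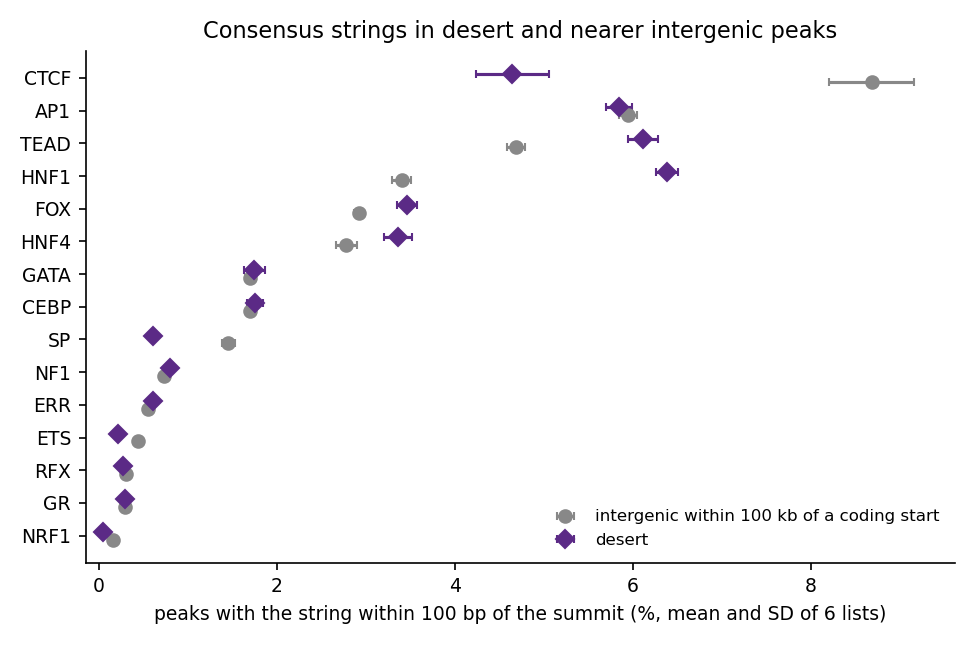
Share of peaks with each consensus string within 100 bp of the summit (%, horizontal axis, mean and SD over the 6 lists) in desert (diamonds) and nearer intergenic peaks (circles); the string shared by PPAR and HNF4, under 0.1% in both, is not drawn. CTCF is lower in desert peaks (4.64 against 8.68%) and HNF1 higher (6.38 against 3.4%).

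Base composition and strings also varied with distance inside the deserts. The 3093 regions at 100 to 200 kb from a coding start had a median GC content of 48.3%, the 2496 at 200 to 500 kb 46.8%, the 552 at 500 to 1000 kb 43.8% and the 132 farther out 41.3%. The HNF1 string was in 5.4, 5.93, 9.06 and 9.85% of these 4 sets in the same order. The CTCF string was in 5.63, 3.49, 2.54 and 3.79%, where the last value is 5 regions. Windows at least 50% repeat made up 4.59, 6.37, 7.97 and 15.2%. The HNF1 string is rich in A and T, and its part in the relation with GC content was not tested.

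Desert regions were unevenly divided among the gaps between coding genes. They fell in 1118 gaps, with a median of 3 per gap. Of these gaps, 184 held at least 10 regions each and 3091 of the 6273 together (49.3%). The part of gap size in this was not tested. The median distance from one desert region to the next was 25.4 kb. The fullest gap, 1.79 Mb between Myc (a growth-promoting transcription factor) and Gsdmc, held 50 regions, of which 29 were in all 6 lists. Its strongest region, 146 kb from Myc inside a long noncoding RNA gene, had ranks of 95.3, 97.5 and 95.4 in Sham and 96.4, 97.8 and 95.2 in UNx libraries, which overlapped (chr15:62132519-62133485).

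The gap between Zfp608 and Gramd3 was the second fullest, with 48 regions. A gap of 0.894 Mb between Tnp1 and Tns1 (tensin 1, which links integrins to actin) held 45 regions at 50.3 per Mb. Its strongest region, 191 kb from Tns1, had ranks of 94.3, 95.3 and 96.0 in Sham and 95.8, 91.7 and 83.6 in UNx libraries and belongs to the group of 73 linked windows. Between Nr2f2 (the nuclear receptor COUP-TFII) and Gm10295, 42 regions were found, and 41 each between Maf and Dynlrb2 and between Foxo1 and Cog6. The gap beside Foxo1, a transcription factor of the insulin pathway, was the densest of the 12 fullest, with 65.2 regions per Mb over 0.629 Mb.

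By nearest coding start the 6273 regions belonged to 1549 genes, led by Myc with 46, Nr2f2 with 39, Adgrl2 (an adhesion receptor) with 35 and Zfp608 with 29. Of 53 annotated developmental transcription factors in a list chosen with earlier results known, 41 (77.4%) had desert land nearest to them and 35 had at least 1 desert region, 270 regions in all. Among all 21911 coding genes, 13.8% had such land. The density per Mb of this land was 15.0 for the developmental factors and 7.48 for all genes. Sox9 had 23, Sall1 (needed for kidney formation) 19, Sox4 18, and Pou3f3, Emx2, Klf5, Tfap2b, Irx1 and Six2 had 14, 12, 8, 7, 5 and 4.

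The strongest of the developmental set lay 258 kb from Nr2f2, at 91.2, 89.5 and 85.0 in Sham and 94.3, 96.3 and 89.5 in UNx libraries. The strongest near Sox9, 383 kb from it, was at 93.5, 91.7 and 89.4, and at 95.0, 91.6 and 82.5. The groups overlapped in both, and neither passed the test (limma adjusted p = 0.27 and 0.76). Growth factors and their signalling genes (29 annotated) had 20.2 desert regions per Mb of their land, with 46 nearest to Myc, 22 to Id2 (an inhibitor of basic helix-loop-helix factors), 10 to Fgf9, 7 to Bmp7, 5 to Igf1 and 2 to Vegfa. Adhesion and axon guidance genes (18 annotated) all had desert land, 30.4 Mb in total, at 3.03 regions per Mb.

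Of 18 annotated genes of solute transport, 6 (33.3%, beside 13.8% of all coding genes) had desert land, at 10.4 regions per Mb of it (beside 7.48), and 3 (16.7%, beside 7.07%) had a region: Slc16a7 (a monocarboxylate carrier) with 7, Slc13a1 (the sodium-sulphate cotransporter of the proximal tubule) with 6 and Slc5a12 (a sodium-lactate carrier) with 2. The strongest near Slc13a1, 134 kb from its start, was at 85.9, 82.7 and 71.3 in Sham and 78.3, 82.2 and 82.8 in UNx libraries. These list counts carry no test, and a nearest gene need not be a target.

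The share of each list made up by desert peaks was lower in all 3 UNx libraries than in any Sham library. It was 6.51, 6.27 and 6.63% in Sham and 6.15, 6.09 and 5.97% in UNx libraries. The means were 6.47 ± 0.18% and 6.07 ± 0.089% (SD, n = 3 each), a difference of −0.402 percentage points (exact permutation test, two-sided, p = 0.1, the smallest possible with 3 against 3). The lists held 4898, 4491 and 4955 desert regions in Sham and 4510, 4547 and 4533 in UNx libraries, and these groups overlapped (exact permutation p = 0.4). With all deposited peaks in place of lists of equal length the mean number was 106 higher in UNx (exact permutation p = 1), and ranking by fold enrichment left a share difference of −0.0315 (exact permutation p = 1).

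Markers of other cells were checked beside this. At all 12 S1 marker genes every deposited list held a summit no more than 1 kb from a coding transcript start, and the 5 immune markers had one in none. The summed rank of 5 endothelial markers was 26.7 to 57.3 in Sham and 0 to 5.81 in UNx libraries. Of the 6 deposited lists, Kdr had a peak in 6, Flt1 and Cdh5 in 5 each, Emcn in 2 and Pecam1 in 1. A sum of 0, taken after cutting to equal length, thus does not mean that a UNx library lacked endothelial peaks. The sums of the other lists overlapped: 327 to 369 against 326 to 410 for other nephron segments (Aqp2 and Foxi1 at 0) and 147 to 162 against 136 to 156 for stromal cells (Pdgfrb, Tagln and Acta2 at 0). The podocyte sum was 153 to 163 against 162 to 184. The part of endothelial chromatin in the desert differences was not tested, and in bulk tissue fewer cells of a type and less open chromatin per cell cannot be told apart.

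Region by region, the percentile ranks of UNx and Sham libraries were compared with limma over all 74762 regions held by at least 3 lists of equal length. Of the 6273 desert regions 4997 were tested, 1276 were not, and 228 of the latter were in no list of equal length. limma called 62 of the 4997 (1.24%) at an adjusted p under 0.05, beside 0.811% of all tested regions. Of these, 22 (0.440%) were higher after UNx, beside 0.447%, and 40 (0.800%) were lower, beside 0.364%. Nearer intergenic regions had 92 higher and 96 lower calls among 18510.

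At an unadjusted p under 0.05 there were 1054 desert regions (21.1%), beside 20.1% of nearer intergenic and 18.6% of all tested regions. The 3 UNx ranks lay wholly above or below the 3 Sham ranks in 1265 (25.3%), 497 above and 768 below. This share was 24.6% in nearer intergenic regions and 23.7% over all tested regions. The median difference, UNx minus Sham, was −1.63 percentile points over the tested desert regions. It was −1.21 over nearer intergenic regions and −0.00776 over all tested regions. On all deposited peaks these medians were 1.09, 1.59 and 2.14. The desert and nearer intergenic medians thus turned positive while staying below the one over all regions. On ranks by fold enrichment the medians were 0.167, −0.0125 and 0.00431 in the same order. These counts include regions that entered the test through one operation alone: 64 tested desert regions were at 0 in every Sham and 133 at 0 in every UNx library, and such regions had to differ. The number of calls depended on the processing, with 3 on all deposited peaks, 1 on ranks by fold enrichment, 0 on ranks corrected for GC content (1049 at an unadjusted p under 0.05). Leaving out a Sham library gave 2, 4 and 2 calls for libraries 1, 2 and 3, and leaving out a UNx library gave 0, 11 and 3.

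The largest rise lay 336 kb from Tox3, in the gap between Sall1 and Tox3 (chr8:90011209-90012109). Its ranks were 0, 1.07 and 0 in Sham and 65.9, 81.7 and 61.0 in UNx libraries. All 6 deposited lists held a peak there, which in 2 Sham libraries was not among the 77355 strongest and in all 3 UNx libraries ranked above the list median, a difference of 69.2 ± 10.1 percentile points (SE; limma adjusted p = 0.0116). Tox3 encodes a chromatin protein of the HMG-box class.

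The region 119 kb from Zfp36l2, whose product promotes mRNA decay, was the rise seen against the highest Sham level of the 5 (chr17:84068507-84069324). It was at 41.1, 26.6 and 26.7 in Sham and 88.1, 79.2 and 77.8 in UNx libraries. Every UNx value lay far above every Sham value, a difference of 50.3 ± 7.29 (SE; adjusted p = 0.0116). This region and the Tox3 region kept their call in 10 of the 17 and 10 of the 16 alternative fits that included them.

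Between Tmem182 and Pou3f3 (a factor of nephron patterning), 585 kb from the former, a region rose from 12.5, 40.04 and 16.6 to 67.4, 77.5 and 69.5 (adjusted p = 0.0293). The region 229 kb from Cntnap4, which held a TEAD match, was at 18.3, 0 and 0 in Sham and 61.3, 61.9 and 61.9 in UNx libraries (adjusted p = 0.0282). The region 143 kb from Katnal1 was at 8.39, 0 and 0 and at 64.2, 54.4 and 39.7 (adjusted p = 0.0413). The groups did not overlap in any of the 3. The adjusted p-values are limma's, and these 3 calls were kept in 4, 4 and 2 of 16 alternative fits.

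The largest fall lay 418 kb from Prdm13, a neural transcription factor (chr4:21267056-21267876). It was at 68.5, 70.9 and 85.2 in Sham and 0, 10.7 and 0 in UNx libraries, a difference of −71.3 ± 9.60 (SE; limma adjusted p = 0.00753). The region was thus above the median of each Sham list, and 5 of the 6 deposited lists held it. Its window had a GC content of 38.3%, the lowest of the called desert regions.

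The region 147 kb from Mtdh was at 67.2, 69.9 and 72.0 in Sham and 0, 0 and 19.2 in UNx libraries (limma adjusted p = 0.0147). The region 140 kb from Smc2, a condensin subunit, was at 68.1, 60.1 and 62.1 and at 29.7, 0.86 and 0 (adjusted p = 0.0337). The regions nearest to Kcnc2 (a potassium channel) and Fbxo33 fell by 52.5 and 51.9 percentile points (adjusted p = 0.0351 and 0.0361). In all 5 falls the lowest Sham value was above the highest UNx value, where a rank of 0 means absent from the 77355 strongest peaks and not always from the deposited list. The Prdm13 and Mtdh regions kept their call in 9 and 7 of 16 alternative fits and the other 3 in 2 or 3.

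**Figure D3:**
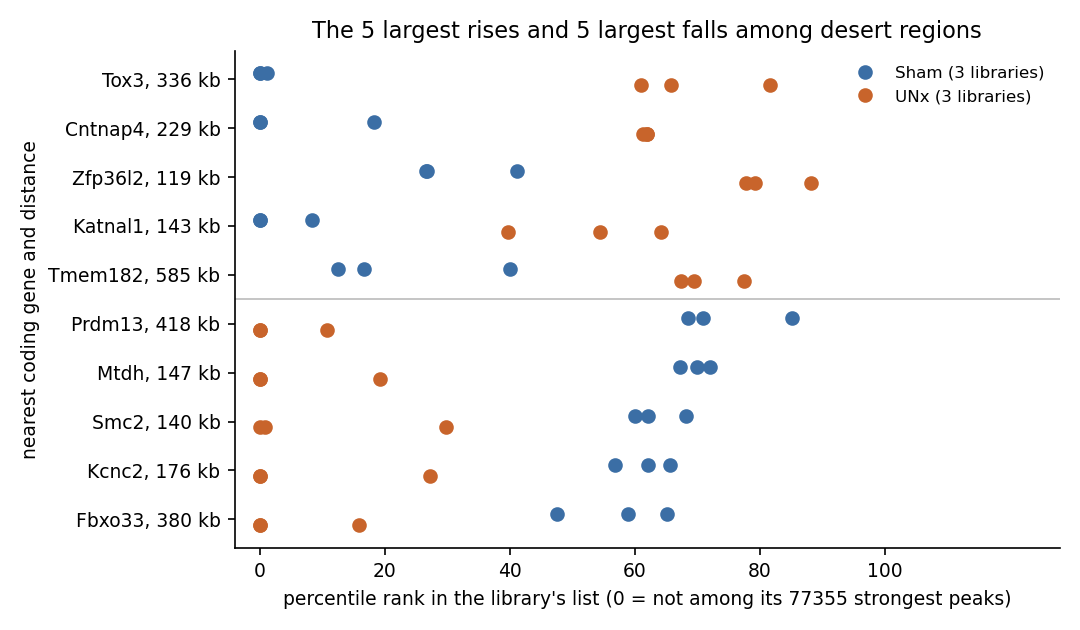
Percentile rank (horizontal axis, 0 to 100) of the 5 desert regions with the largest rises and the 5 with the largest falls, named by the nearest coding gene and its distance; each point is 1 library, blue Sham and orange UNx, and points at 0 lie on each other. The groups overlap in none of the 10, and in 8 of them at least 1 library lies at 0.

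The 62 called regions were spread over 60 gaps, so most gaps with a call held 1. In the gap between Kcnc2 and Atxn7l3b, 2 regions 7.99 kb apart both fell, and in the gap between Olfm4 and Pcdh17, 2 regions fell that lie 3055 kb apart. No gap held calls of both directions. In the gap beside Myc, 1 of 40 tested regions was called, beside 1.24% of all tested desert regions. It lay 514 kb from Myc, and its mean rank rose from 45.4 in Sham to 80.6 in UNx libraries (limma adjusted p = 0.0416).

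The windows of called rises and falls are described here without a test. The 22 rises had a median GC content of 52.0% and a median width of 920 bp, and the 40 falls 46.8% and 614.5 bp, beside 47.3% and 621 bp for all tested desert regions. A window at least 50% repeat was found in 9 of the 40 falls (22.5%) and 2 of the 22 rises (9.09%), beside 5.70% of tested desert regions. Among nearer intergenic regions, 11 of the 1184 tested windows of this kind were called (0.929%), all falls, beside 1.02% of the other windows. In coding gene bodies 8 of 1467 were called (0.545%), 2 of them higher, beside 0.814% of the other windows.

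Of the 40 falls, 7 belonged to the group of 73 windows linked to the Mat2b window, 1 of them by fewer than 100 aligned positions, and 0 of the 22 rises did. These 7 are among the 9 falls counted above with a window at least 50% repeat. They were 7 of the group's 67 tested members, beside 55 called of the 4930 other tested desert regions and 0.811% of all tested regions. The group was at median ranks of 85.8, 79.4 and 80.9 in Sham and 73.4, 77.4 and 69.6 in UNx libraries over its 67 tested members, so the library medians of the groups did not overlap. UNx was lower in 55 of the 67 (82.1%), against 55.01% of the other tested desert regions, with a median difference of −7.18 against −1.57. Among all 285 tested desert windows at least 50% repeat, which include members of the group, UNx was lower in 68.8%. Their median difference was −5.52, so a fall was not particular to this group. These counts are descriptions: 4 of the 67 were at 0 in every UNx library and had to be lower, and without them UNx was lower in 51 of 63, with a median of −6.11. The copy 184 kb from Kcnc2 was at 90.4, 92.6 and 94.2 in Sham and 66.1, 78.0 and 64.0 in UNx libraries. The 2 strongest copies, the Mat2b and Pou3f2 regions, were not called and differed by 0.183 and 1.05 percentile points.

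Regions outside the deserts that share sequence with the group had the same sign. Among 66 tested nearer intergenic regions that share a run of 20 bases with the group, 55 (83.3%) were lower after UNx, with a median difference of −7.96, and among 46 in coding gene bodies 35 (76.1%) were, with −8.08. The direction is therefore not particular to the desert members. The group has a median GC content of 53.2%, and the 1116 tested desert windows of 50 to 55% GC, which include members of the group, had a median difference of 0.240. On ranks corrected for GC content the group's median difference was −8.00, and on ranks by fold enrichment it was −2.82. The members share sequence and possibly reads, so they are not independent of each other.

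**Figure D4:**
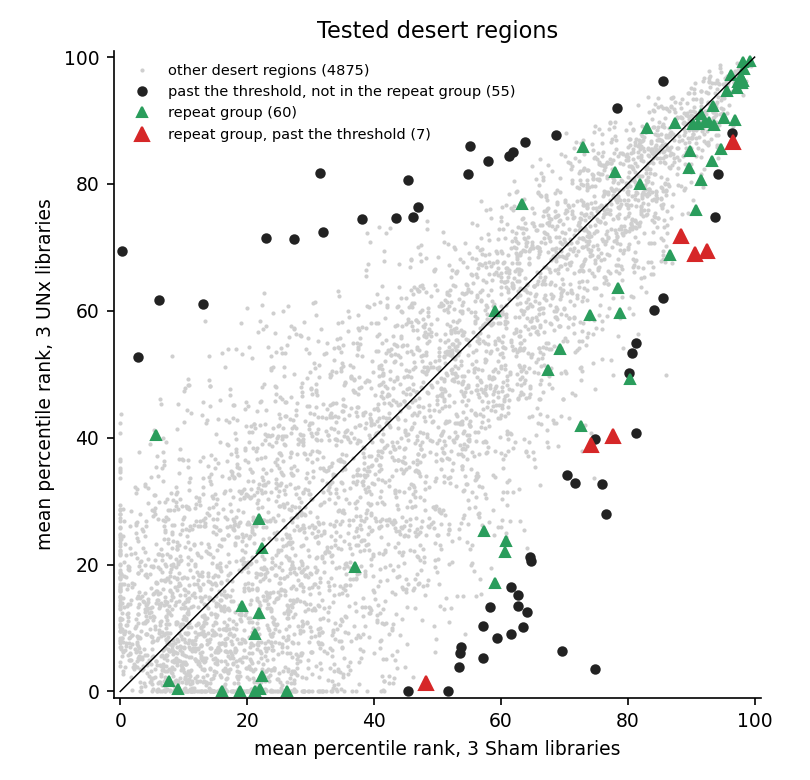
Mean percentile rank in the 3 UNx libraries (vertical) against the 3 Sham libraries (horizontal) for each of the 4997 tested desert regions, with the line of equality; black points passed the threshold, triangles are the repeat group and red triangles its 7 called members. Of the triangles of tested regions, 55 of 67 lie below the line.

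Desert regions with the CTCF string ranked lower in the UNx libraries. Over the 247 tested regions the median rank was 37.7, 39.8 and 41.8 in Sham and 28.9, 30.9 and 22.6 in UNx libraries, and the groups did not overlap. The median difference was −10.7 percentile points, with UNx higher in 52 of the 247. Among called regions, 2 of the 40 falls (5.0%) and 0 of the 22 rises held the string, beside 4.94% of all tested desert regions. All 4083 tested regions with the string, at any position, had a median of −8.01, so the shift was not particular to deserts. HNF4 regions (162 tested) were at 51.2, 46.1 and 49.6 in Sham and 45.0, 48.4 and 52.1 in UNx libraries, and AP-1 regions (287) at 45.2, 45.9 and 47.2, and at 48.2, 48.1 and 48.2. HNF1 regions (319) were at 49.7, 44.1 and 50.1, and at 43.7, 42.1 and 45.7.

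The difference between the operations followed base composition. Desert windows under 42% GC had a median of −4.69 percentile points (1028 regions, 5 called, none of them higher). Those from 42 to 46% had −2.74, from 46 to 50% −1.36, from 50 to 55% 0.240, and those of 55% or more 0.714 (532 regions, 8 called, 7 of them higher). Calls were 1.24% of all tested desert regions and 0.811% of all tested regions. All tested regions showed the same order up to 55%, from −2.61 to 0.682. Correcting the ranks for GC content brought the desert median to −0.719 and the nearer intergenic median from −1.21 to −1.13. The correction left the CTCF set at −9.83 and moved the HNF1 set from −3.55 to −0.997. On all deposited peaks the CTCF set was at −6.95 and the HNF1 set at −0.373, and among the 20000 strongest peaks they were at −17.1 (23 regions) and −10.9 (65 regions).

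Distance went along with this. The median difference was −1.27 at 100 to 200 kb, −1.18 at 200 to 500 kb, −4.63 at 500 to 1000 kb and −8.59 beyond 1000 kb (100 tested regions, 2 called, both lower), in the sets whose GC content fell from 48.3 to 41.3%. Over all tested desert regions 1.24% were called. The part of GC content in the relation with distance was not tested.

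**Figure D5:**
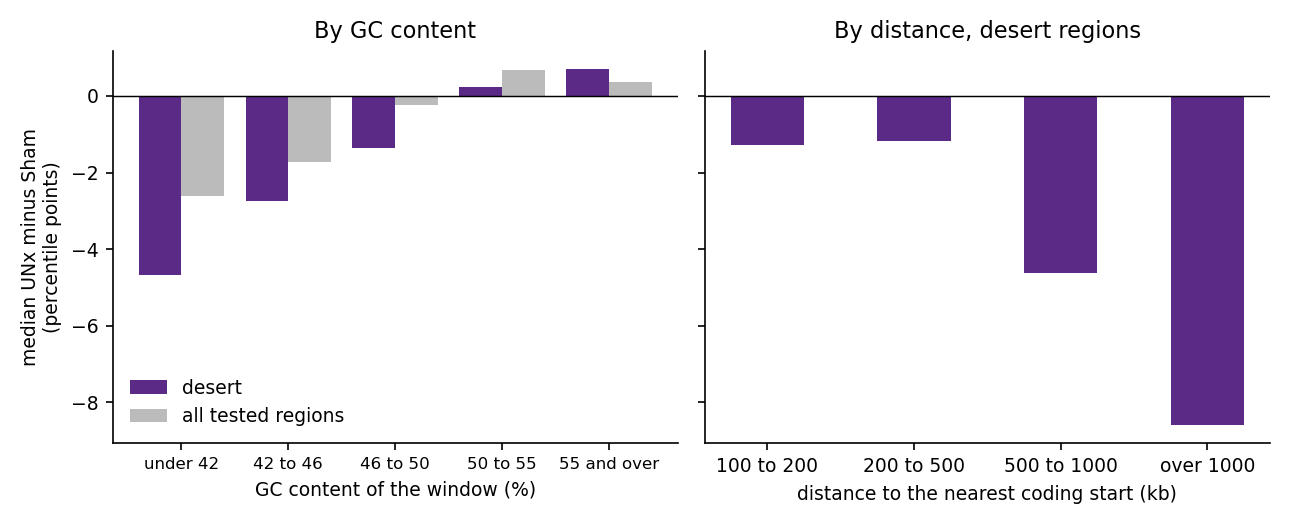
Median difference in percentile rank, UNx minus Sham (vertical axis, percentile points), by GC content of the window for desert and all tested regions (left) and by distance from the nearest coding start for desert regions (right). Desert bars run from −4.69 under 42% GC to 0.714 at 55% and over, and from −1.27 at 100 to 200 kb to −8.59 beyond 1000 kb.

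Regions at the rule's limit of 100 kb ranged widely in strength on either side. Just inside it lay a region 100.001 kb from Nox4 (an NADPH oxidase abundant in kidney), at 61.9, 70.2 and 55.3 in Sham and 57.2, 71.3 and 81.5 in UNx libraries, and a region 100.003 kb from Irx4 with a mean rank of 89.1. The last of the 3, 100.022 kb from Cypt12, was in 1 list of equal length. Just outside were regions 99.944 kb from Nr3c1 (the glucocorticoid receptor), 99.859 kb from Stx16 and 99.843 kb from Bod1, with mean ranks of 1.88, 88.6 and 14.5. The farthest desert region, 2195 kb from Pik3c3 (a lipid kinase of autophagy), was in all 6 lists at ranks from 6.84 to 31.99.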

How the data were processed

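The authors deposited 1 narrowPeak list per library, called per library and not pooled. Per the submitters' processing notes the tools were cutadapt 3.4, Bowtie, SAMtools, Picard and MACS2 2.2.7.1 on mm10; settings, the filter and the treatment of reads that match several places are not given in the sources used here. Values per summit are the authors': a fold (ratio) over background, −log10 p, −log10 q and a display score, all as deposited. The lists hold no read counts, so the sequencing depth is unknown and no interval that needs it is given. They held 77355 to 100999 peaks.

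Intervals overlapping by at least 1 bp were merged. Positions came from GENCODE M21 (comprehensive) and sequence from RefSeq GRCm38. Ranks used the 77355 strongest peaks of each list by −log10 q and were fitted with limma 3.58.1 in R 4.3.3 (eBayes with trend and robust; Benjamini-Hochberg, two-sided, 0.05) over 74762 regions, a step tested on simulated data. The pairing check used the deviations from the group means: same-numbered libraries correlated at 0.00812, −0.0999 and −0.0492. Libraries of unlike number correlated at −0.0776 to 0.105. The check thus showed no pairing by number, but with so few pairs it cannot exclude one. Local alignments scored 2 for a match, −3 for a mismatch and −5 for a gap.

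The regions, gene lists and strings were chosen with earlier results of these data known. Named regions were the 5 strongest, the 5 largest rises and falls past the threshold, the farthest, the best in the 3 fullest gaps, the best per string and per gene list, and the 3 on either side of 100 kb. The basic annotation as an alternative, and the repeat comparison with its alternatives, were added after seeing the data.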

Additional observations from a re-analysis of the deposited data

How the results depend on the processing

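The mean difference in the share of desert peaks in a list, UNx minus Sham, stayed negative in every alternative run. It was only −0.0315 percentage points with ranks by fold enrichment, and between −0.502 and −0.324 when 1 library was left out. The number of desert regions per list turned from lower to higher in UNx with all deposited peaks (106) and with ranks by fold enrichment (2.67). limma called 62 desert regions as reported, 3 on all deposited peaks, 1 on ranks by fold enrichment, 23 with summits within 250 bp of the best summit, 125 on normal scores and 33 at a limit of 200 kb. It called 0 among the 20000 strongest peaks, 0 without the presence filter and 0 on GC-corrected ranks, with 188, 992 and 1049 at an unadjusted p under 0.05. Leaving out 1 library gave 0 (without UNx replicate 1, where 823 passed unadjusted) to 11 (without UNx replicate 2). With the replicate number as a block, which the pairing check does not back as pairing, limma called 5, and 0 with the replicate block and GC correction (994 unadjusted). Calls at a −log10 q of at least 5 (64) and with a plain variance model (56) stayed within 1.5 times in number. Of the 62 regions reported, these fits called 61 and 22. The limits of 50 kb and 200 kb and the basic annotation reused the reported fit and changed only which regions count as desert. They gave 92, 33 and 68 calls among 8302, 2507 and 5488 tested regions. At 50 kb and with the basic annotation the reported 62 were kept by design.

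The rank difference from nearer intergenic peaks was −0.969 among the 20000 strongest peaks (exact permutation p = 0.156), 0.313 by fold enrichment and −4.46 to −3.95 without 1 library, where the smallest possible exact p is 0.0625. The strings past the adjusted threshold were 11 of 16 on all deposited peaks, 13 at 50 kb, 14 at 200 kb, 11 with the basic annotation, 11 within 50 bp of the summit, and 0 for the 20000 strongest peaks, fold enrichment, −log10 q of at least 5 and summits within 250 bp. The count was not run without 1 library, since 5 libraries cannot reach the threshold. Differences in string share that changed sign, in percentage points, were these. Among the 20000 strongest peaks PPAR was at −0.0372, AP-1 at 1.05, C/EBP at −0.255 and ERR at −0.112. By fold enrichment GR was at 0.0111. At 50 kb PPAR was at −0.0148, C/EBP at −0.0754, GR at 0.0972, ERR at −0.0638 and RFX at 0.0527. At 200 kb GR was at 0.0321, ERR at −0.0884, GATA at −0.0568 and RFX at 0.0808. With the basic annotation PPAR was at −0.00529 and C/EBP at −0.00845. Within 50 bp PPAR was at −0.00153, AP-1 at 0.127 and RFX at 0.0132. Without 1 library PPAR ranged down to −0.00846 (without Sham replicate 3; −0.00353 and −0.00139 without UNx replicates 2 and 3), and GR was at 0.00458, 0.00218 and 0.00535 without UNx replicates 1, 2 and 3. The cause of these changes was not tested. Depth is unknown, so no limit from it can be given.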

Other observations

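Desert regions were unevenly spread over the chromosomes. Per Mb of desert territory there were 13.4 on chromosome 13 and 12.7 on chromosome 7, against 7.68 in all, 3.18 on chromosome X and 0 on chromosome Y, where 57.4 Mb met the positional part of the rule. On chromosome Y the last merged region of any kind ended at base 1246001 of 91744698, so the lack of regions there was not particular to deserts. Desert regions inside long noncoding RNA genes (821 tested) had a median difference of −0.228 percentile points with 8 called, 5 of them higher, and a median GC content of 48.3%. Over all tested desert regions 62 of 4997 were called, 22 of them higher.

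Besides the group of the Mat2b window, 14 groups of at least 5 desert windows were linked by shared runs of 20 bases. In 5 of them every UNx median was below every Sham median, in 0 every one was above, and in 9 the operations overlapped. Of the 5, a group of 32, whose strongest member is nearest to Pfkp, was at 51.7, 44.7 and 50.4 in Sham and 32.7, 33.9 and 37.6 in UNx libraries, with a median GC content of 40.8%. A group of 10, led by a region nearest to Msr1, was at 58.4, 59.9 and 64.4, and at 53.4, 51.3 and 45.8. The largest group, with 131 regions, overlapped between the operations. These groups were formed after the ranks had been seen and carry no test.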
